A study of Drosophila melanogaster with 51 samples.

Results

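In basal Kc167 cells, 2896 of the 16118 regions of open chromatin, or 18.0% (95% interval 17.4% to 18.6%), lay in introns far from any promoter. A region was taken when its midpoint was in an intron of a protein-coding gene, in no annotated exon, and 1 kb or more from every annotated transcription start site (TSS) of any gene type. Of all regions, 7179 had their midpoint in an intron of a protein-coding gene, 5963 of these were in no exon, and 2896 of those met the distance rule. The share lay between 15.2% on 2R and 20.03% on X over the 5 large chromosome arms. In the 200 bp just beyond the distance limit there were 224 regions with a median width of 294 bp, and in the 200 bp just short of it there were 300 intronic regions with a median width of 292 bp.

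Kc167 is an embryonic Drosophila melanogaster cell line that resembles blood cells, the hemocytes, and the study mapped its accessible DNA by ATAC-seq, in which a transposase inserts adapters where DNA is exposed. The 3 basal libraries came from cells that were given no copper and carried no construct, and the authors combined them into 1 list of positions without a score or signal. The other 48 libraries came from 12 stable lines with copper-inducible Dfd, Ubx, AbdB, Hth or Gcm, alone or together, each with 2 induced and 2 non-induced libraries, induced with 0.5 to 3.7 mM copper for 18 to 24 h. They were not analysed here. All values therefore describe 1 list that gives no replicate error and no read depth behind a region. Intervals are exact 95% intervals that cover counting error only, the spread is shown as the range over the 5 large arms (2L, 2R, 3L, 3R and X), and no test was made. Of the 15 hemocyte genes listed that had intron sequence able to hold such a region, 14 had an open TSS, compared with 4209 of all 6806 such genes, which measures open chromatin and not RNA.

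Introns of fly genes often hold enhancers, stretches of DNA where transcription factors bind and act on a promoter at a distance. First introns are commonly longer than later ones and are a frequent place for such elements, and genes with complex regulation tend to have long introns. Open chromatin marks DNA on which nucleosomes have been displaced, but an open region in an intron can also be an unannotated promoter, an insulator or another bound site, and the position alone does not say which.

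The sequences of 6 of these regions are shown because they carry, in different combinations, the motifs that were more common in intronic open regions than in closed intron, in genes that held many such regions. For each of 9 of the 10 genes with most regions, the region of 200 to 300 bp with most different motifs had been taken. They are not typical, since they were taken for their motifs. The regions taken in the same way in mamo, tai and heca had none of the motifs that were more common in intronic open regions. Of all intronic regions, 61.7% had no match to any of the GAGA, GATA, AP-1, ETS, STAT and Runx motifs within 100 bp of their midpoint. The pnt and kirre regions shown here are among them, and ETS, STAT and Runx were not more common than in closed intron. The letters are the plus strand of the RefSeq Release 6 assembly, which has dm6 coordinates, and capitals mark matches to any of 20 motifs on either strand. The bun region, chr2L:12521097-12521353 in intron 5, has 3 matches to the GA repeat GAGAGAG, which the GAGA factor Trl and Clamp bind, and 1 to the GATA motif. The Eip75B region is chr3L:18005345-18005620 in intron 3, with 1 GAGAGAG. The ush region is chr2L:495443-495700 in intron 2 and the CG12535 region is chrX:3429855-3430154 in intron 1, and both have a GATA match and a Runx match. The CG12535 region also has a match to the Stat92E motif. The pnt region is chr3R:23341785-23342058 in intron 1, with 1 match to the homeodomain motif TAATTA and 1 GATA match. That GATA match lies more than 100 bp from the midpoint. The Stat92E and TAATTA motifs were less common in intronic open regions than in closed intron. The kirre region, chrX:3053144-3053436 in intron 5, has matches to the Gcm and Mad motifs and none to GAGA or GATA.

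bun: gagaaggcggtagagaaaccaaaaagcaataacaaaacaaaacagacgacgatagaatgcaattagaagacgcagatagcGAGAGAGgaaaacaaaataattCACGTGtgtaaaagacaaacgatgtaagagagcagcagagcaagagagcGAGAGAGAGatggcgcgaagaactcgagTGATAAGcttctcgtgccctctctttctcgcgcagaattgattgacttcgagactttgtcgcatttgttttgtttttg
Eip75B: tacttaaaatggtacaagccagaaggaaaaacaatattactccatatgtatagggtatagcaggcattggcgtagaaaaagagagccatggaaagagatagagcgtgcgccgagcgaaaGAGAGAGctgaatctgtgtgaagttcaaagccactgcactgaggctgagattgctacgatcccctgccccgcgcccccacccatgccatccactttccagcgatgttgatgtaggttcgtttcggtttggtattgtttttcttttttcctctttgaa
ush: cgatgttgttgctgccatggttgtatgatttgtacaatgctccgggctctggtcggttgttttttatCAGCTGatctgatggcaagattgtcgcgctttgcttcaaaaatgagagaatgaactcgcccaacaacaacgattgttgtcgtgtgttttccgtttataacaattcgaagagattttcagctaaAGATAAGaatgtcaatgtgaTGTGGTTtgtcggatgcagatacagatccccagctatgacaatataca
CG12535: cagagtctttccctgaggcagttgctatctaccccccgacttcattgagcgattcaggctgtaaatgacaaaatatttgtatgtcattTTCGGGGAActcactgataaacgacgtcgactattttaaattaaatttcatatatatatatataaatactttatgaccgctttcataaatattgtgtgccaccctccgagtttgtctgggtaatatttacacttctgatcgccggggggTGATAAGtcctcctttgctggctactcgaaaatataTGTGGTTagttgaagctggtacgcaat
pnt: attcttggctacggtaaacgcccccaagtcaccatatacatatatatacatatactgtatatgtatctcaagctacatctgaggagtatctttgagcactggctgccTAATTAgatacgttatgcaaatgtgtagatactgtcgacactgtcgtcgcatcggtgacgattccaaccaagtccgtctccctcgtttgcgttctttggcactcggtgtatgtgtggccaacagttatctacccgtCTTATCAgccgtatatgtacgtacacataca
kirre: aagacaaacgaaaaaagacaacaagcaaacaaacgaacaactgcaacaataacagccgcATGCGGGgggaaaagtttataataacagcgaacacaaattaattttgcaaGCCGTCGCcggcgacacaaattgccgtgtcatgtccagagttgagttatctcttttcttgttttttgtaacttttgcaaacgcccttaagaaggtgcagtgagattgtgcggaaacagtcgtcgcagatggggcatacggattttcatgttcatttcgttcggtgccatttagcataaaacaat

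As called, intronic regions were mostly wider than those at promoters. Their median width was 301 bp (quartiles 201 and 442 bp), compared with 212 bp for the 8556 regions within 250 bp of a protein-coding TSS and 260 bp for the 997 intergenic regions 1 kb or more from every TSS. The medians did not overlap across arms, at 290 to 317 bp for intronic regions and 205 to 219.5 bp for regions at TSSs. Of the intronic regions 24.2% were narrower than 200 bp and 81.5% were narrower than 500 bp, compared with 44.0% and 88.0% at TSSs. Over 1000 bp there were 30 intronic regions and 89 at TSSs, of which the widest had 2413 bp. Regions at TSSs were closer to the nearest other open region, with a median gap of 114 bp against 578 bp. This gap is partly set by the distance rule, which keeps intronic regions away from TSSs. Whether neighbouring regions are parts of 1 open stretch was not tested. Width did not separate first from later introns, with medians of 303 and 299 bp. It was 306 bp in genes with an open TSS and 264 bp in genes without one.

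**Figure D1:**
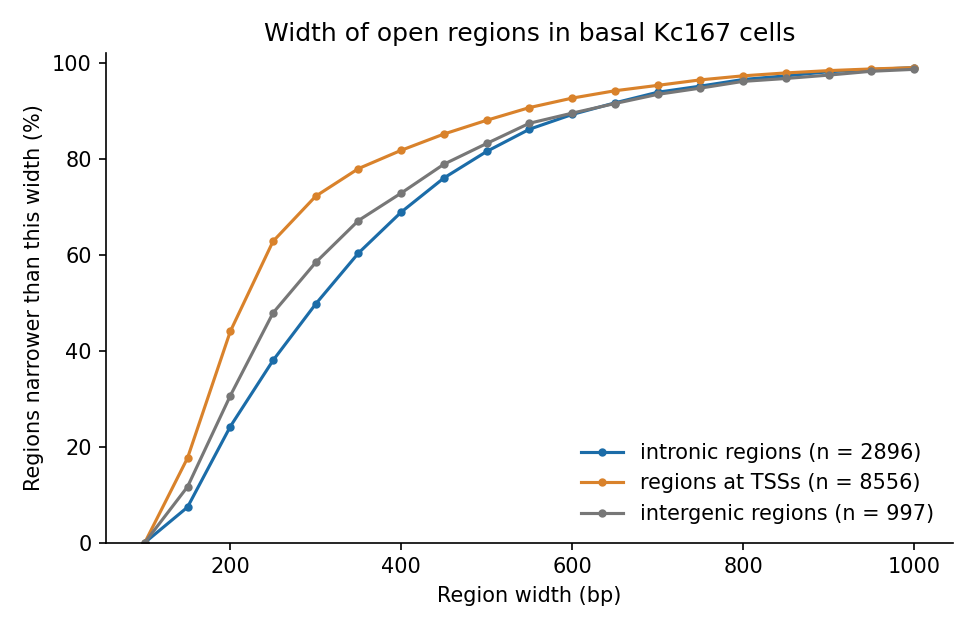
Cumulative width of open regions. The x axis gives width in bp and the y axis the percentage of regions narrower than that width, for 2896 intronic regions, 8556 regions at TSSs and 997 intergenic regions. The intronic curve lies to the right of the curve for TSSs, with 24.2% against 44.0% of regions under 200 bp.

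The widest intronic region, at 1803 bp, was in intron 2 of CG1677. The next were in zfh2, a zinc-finger homeodomain factor, at 1623 bp, in sgg, the GSK3 kinase of Wingless signalling, at 1491 bp, in Hr4, a nuclear receptor of the ecdysone response, at 1444 bp, and in Tlk, the Tousled-like kinase, at 1324 bp. The other regions among the 10 widest lay in MESR3, Samuel, pnt, Ten-m and Mkp3, down to 1163 bp. They were 1045 to 10400 bp from the nearest TSS, and that of Hr4 was the closest.

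The base composition of these regions differed from that of the introns around them. Their mean GC content was 44.6% ± 5.72 (SD over regions), close to 44.1% at TSSs and 44.7% in intergenic regions, whereas eligible intron outside open regions had 39.9%. Repeat-masked bases made up 17.1% of intronic regions and 20.5% of closed eligible intron. Eligible intron means intron of a protein-coding gene that is in no exon and 1 kb or more from every TSS, and there were 43.1 Mb of it, with 67.2 intronic regions per Mb (64.8 to 69.7). The density was 59.2 per Mb on 3R, 64.5 on 2R, 71.7 on 2L, 72.9 on 3L and 79.3 on X. Chromosome 4 had 9 regions, or 55.0 per Mb (25.1 to 104). Y, on which only 10 open regions of any class were called, had 1, or 1.08 per Mb.

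Introns with a region often held more than 1. Of 1379 introns with a region, 642 had more than 1, 124 had 5 or more and 26 had 10 or more. Neighbours within 1 intron were a median of 778 bp apart (quartiles 181 and 3323 bp), and 54.1% of the 1641 gaps were 1000 bp or less. Of the gaps, 445 were under 200 bp, and whether such neighbours are parts of 1 open site was not tested. Another open region of any class lay within 1 kb of 60.8% of intronic regions, compared with 70.7% of all open regions and 75.4% of those at TSSs. The distance rule keeps intronic regions away from TSSs, where 53.1% of all open regions lay. This comparison is therefore partly set by the rule. The busiest was intron 5 of kirre, with 19 regions in 117.7 kb, followed by intron 3 of Eip75B with 17 in 65.2 kb, intron 2 of sbb with 16 in 65.6 kb and intron 1 of bab1 with 16 in 58.7 kb. The density was lowest close to exons. It was 33.8 per Mb (29.2 to 39.1) within 250 bp of an exon, 104 per Mb (94.8 to 114) at 500 bp to 1 kb, and 41.5 per Mb (38.1 to 45.2) more than 5 kb away.

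First introns held more regions per length than later ones. With introns numbered in the transcript of longest span, 1150 regions (39.7%) were in first introns, which made up 27.3% of eligible sequence, and 1701 (58.7%) were in later introns, which made up 71.5%. A further 42 regions were in a first intron of 1 gene and a later intron of another, and 3 were in neither. The density was 97.9 per Mb in first introns and 55.2 per Mb in later introns, a ratio of 1.77 (1.64 to 1.91). The ratio was above 1 on each large arm, from 1.24 on 2L to 2.35 on 3R. Counted by intron number, the density was 98.7, 81.5, 64.2, 44.5 and 54.9 per Mb in introns 1 to 5 and 17.9 per Mb in introns 6 or later. Length also differed by number, with a median of 2.67 kb for intron 1, 0.219 kb for intron 2 and 0.069 to 0.075 kb for those after. In genes with an open TSS the ratio of first over later introns was 1.64 (1.52 to 1.77), and in genes with a closed TSS it was 2.22 (1.76 to 2.78).

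The difference was largest near the start of the transcript and in short introns. At 1 to 2 kb from the start, first introns had 157 regions per Mb (138 to 176) and later introns 81.4 per Mb (62.1 to 105). At 10 to 20 kb they had 76.1 and 74.3 per Mb, a ratio of 1.02 (0.858 to 1.22). Beyond 50 kb, where only 6 regions were in first introns, first introns had 12.3 per Mb and later introns 28.8 per Mb. In genes with an open TSS these densities were 42.8 and 50.3 per Mb, a ratio of 0.851 (0.310 to 1.88). Genes with a closed TSS had no region in 0.347 Mb of first intron at that distance. By intron length, the ratio was 3.09 (2.62 to 3.63) under 5 kb, 1.57 at 5 to 10 kb, 1.31 at 10 to 20 kb, 1.50 at 20 to 50 kb and 0.965 (0.704 to 1.30) above 50 kb. Within introns of 10 kb or more, cut into 5 equal parts, the 5′-most part of first introns had 112 regions per Mb (96.2 to 130) and the 3′-most part 74.4 (62.1 to 88.5). In later introns of that length the values were 66.5 (58.9 to 74.8) and 53.4 (46.6 to 60.8).

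**Figure D2:**
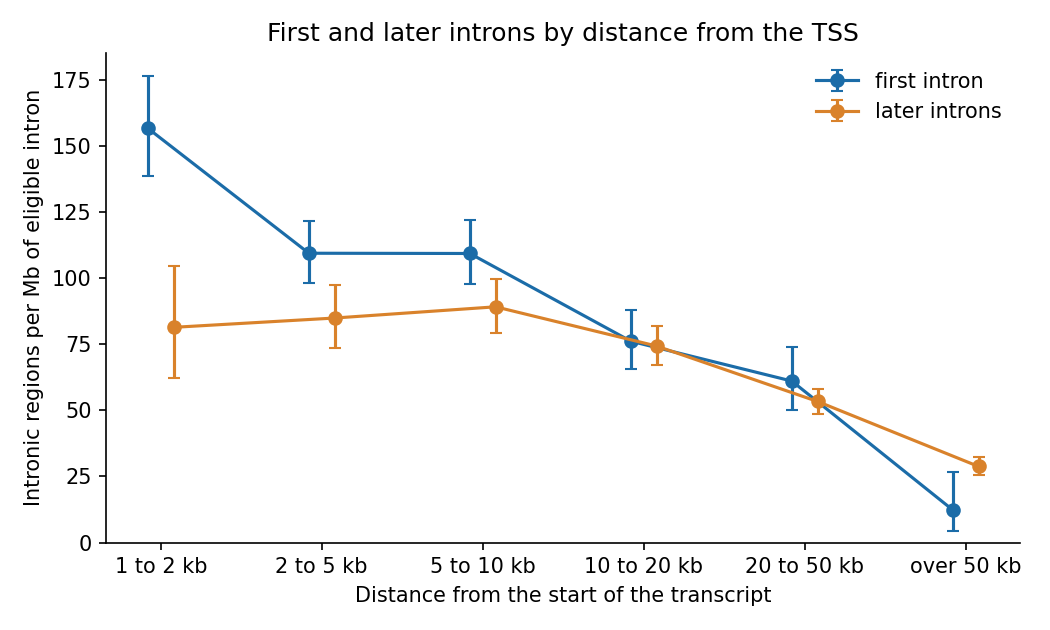
Density of intronic regions in first and later introns. The x axis gives classes of distance from the start of the transcript and the y axis regions per Mb of eligible intron, with exact 95% Poisson intervals as bars. First introns lie above later introns at 1 to 2 kb, with 157 against 81.4 per Mb. The bars overlap in every class from 5 kb on, but overlap is not the comparison of the densities. The ratio of first over later introns was 1.23 (1.04 to 1.44) at 5 to 10 kb and 0.428 (0.156 to 0.943) over 50 kb. Among genes with an open TSS alone, which are not drawn apart, these ratios were 1.15 (0.970 to 1.36) and 0.851 (0.310 to 1.88).

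Of the 6806 protein-coding genes with eligible intron, 1086, or 16.0%, held at least 1 intronic region. Of these, 486 held exactly 1, 169 held 5 or more and 45 held 10 or more, and 47.1% of all intronic regions were in the genes with 5 or more. Up to 100 kb, the longer the gene class, the more often its genes held a region, from 1.45% of genes under 5 kb, through 13.1% at 5 to 10 kb, 31.3% at 10 to 20 kb and 47.4% at 20 to 50 kb, to 69.0% at 50 to 100 kb and 65.5% above 100 kb. These shares depend on how much eligible intron the rule leaves. Its median was 0.1575 kb in genes under 5 kb and 45.8 kb in genes of 50 to 100 kb. The density did not follow the same order. It was 57.0 per Mb under 5 kb, 116 at 5 to 10 kb, 106 at 10 to 20 kb, 75.4 at 20 to 50 kb, 73.2 at 50 to 100 kb and 28.1 above 100 kb. The ratio of genes over 100 kb over those under 20 kb was 0.274 (0.241 to 0.310), and it was 0.169 (0.142 to 0.200) with genes classed by eligible sequence instead of length.

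Genes with an open TSS, meaning a region within 250 bp of any of their TSSs, held most intronic regions. They had 97.3 regions per Mb (93.7 to 101.1), compared with 18.7 per Mb (16.7 to 20.9) in genes with a closed TSS, where no region was called in that window. The ratio was 5.20 (4.63 to 5.86), and it lay between 3.31 on X and 6.90 on 3R. It was above 1 in every class of gene length, from 2.78 (1.52 to 5.36) under 5 kb to 18.9 (11.3 to 34.1) above 100 kb. The 62 open genes above 100 kb had 326 regions in 6.49 Mb, of which 20.3% was repeat-masked, and the 25 closed genes of that length had 15 regions in 5.63 Mb, of which 34.3% was repeat-masked. With only unmasked sequence counted, the ratio over all lengths was 4.84 (4.26 to 5.52), and without X, 4 and Y it was 5.38 (4.71 to 6.16). Among genes with an open TSS alone, the ratio of genes over 100 kb over those under 20 kb was 0.347 (0.304 to 0.396). In total 280 intronic regions (9.67%) were in no gene with an open TSS.

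**Figure D3:**
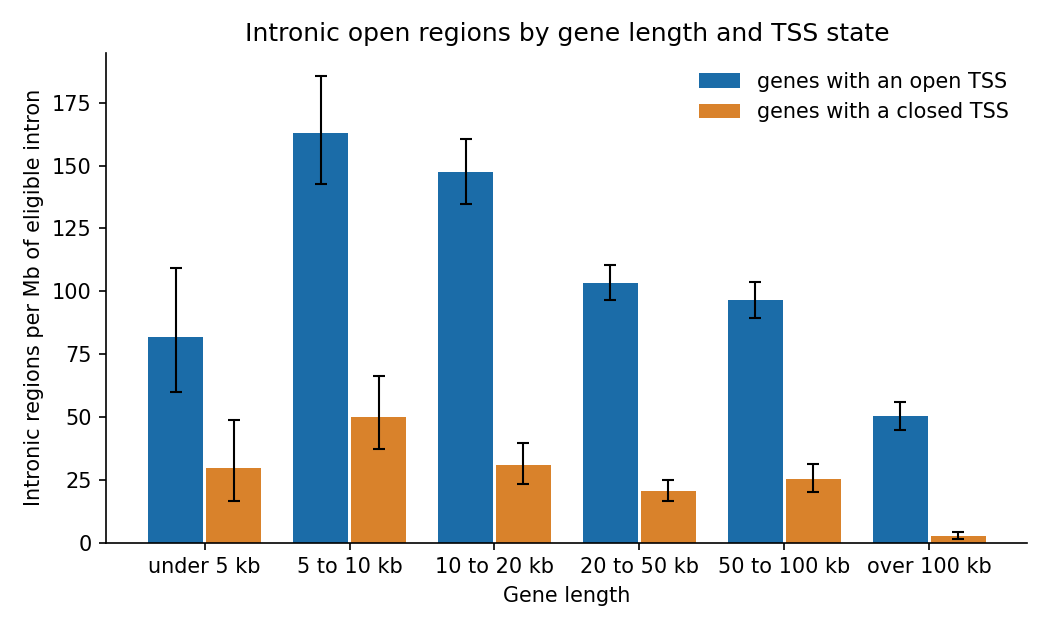
Density of intronic regions by gene length for genes with an open and with a closed TSS. The x axis gives gene length and the y axis regions per Mb of eligible intron, with exact 95% Poisson intervals. Open genes lie above closed genes in each class, with 163 against 50.1 per Mb at 5 to 10 kb and 50.3 against 2.66 per Mb above 100 kb.

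The 10 genes with most regions held 17 to 26 each. Eip75B, a nuclear receptor induced by ecdysone, held 26 regions of 121 to 681 bp in 75.2 kb of eligible intron, or 3.46 per 10 kb. kirre, a cell adhesion protein of the immunoglobulin family needed for myoblast fusion, held 25 in 286 kb, or 0.873 per 10 kb. pnt, an ETS factor downstream of receptor tyrosine kinases, held 22 in 45.4 kb, and its regions reached 1236 bp. ush, a zinc-finger cofactor of GATA factors in blood cell development, held 20 in 47.7 kb, of which 6 were in its first intron. luna, a Krüppel-like zinc-finger factor, mamo, a zinc-finger protein with a BTB domain, and CG12535 held 19 each. bun, a TSC22-domain protein, and tai, a coactivator of the ecdysone receptor, held 18 each, and heca held 17. Only 1 of the regions of Eip75B and of pnt lay in the first intron, compared with 10 of the 17 in heca.

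CG12535 stood out among these 10 as the only gene without an open TSS. Its 61.0 kb on X held 24 open regions, of which 19 were intronic and far from promoters, 11 of them in intron 1. Within the gene, the open region nearest to any of its own TSSs had its midpoint 794 bp away. Among the other 5, 1 lay 26 bp from the start of the nested tRNA gene tRNA:Gln-TTG-2-1. The next genes by number without an open TSS were DIP-alpha and Ggt-1, with 5 regions each.

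**Figure D4:**
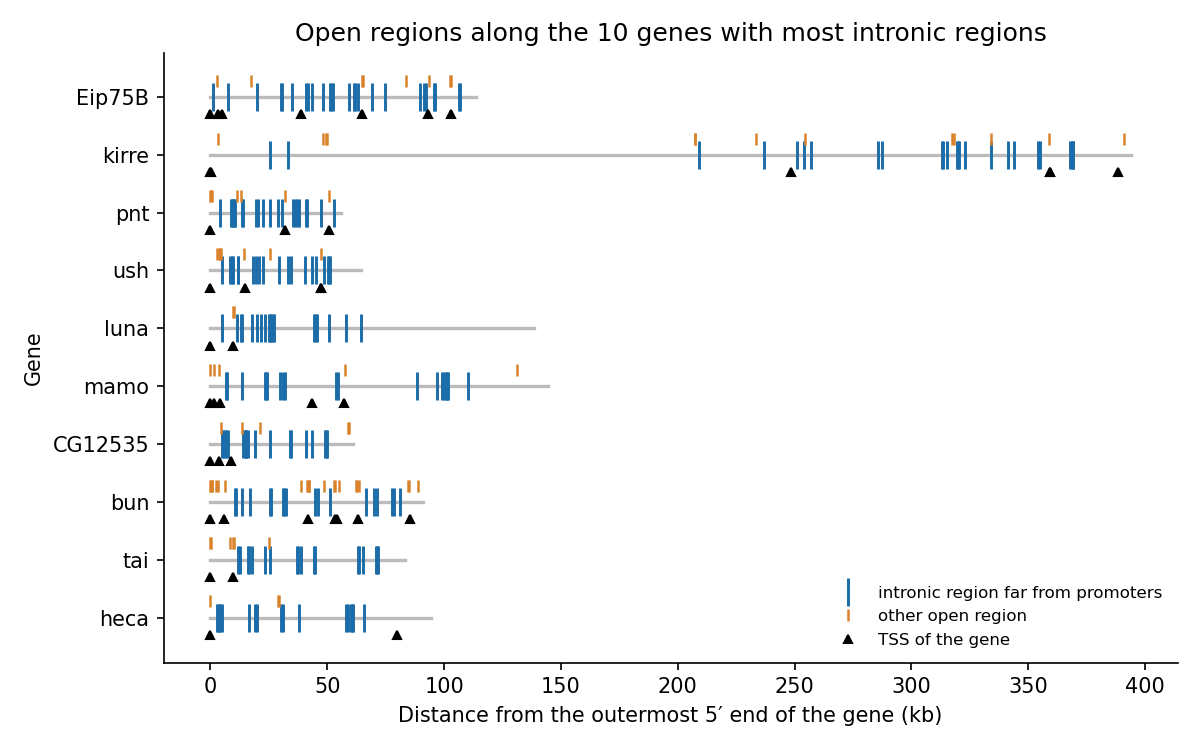
Positions of open regions along the 10 genes with most intronic regions. The x axis gives distance in kb from the outermost 5′ end of the gene, grey lines are the genes, long blue marks intronic regions far from promoters, short orange marks other open regions and triangles the TSSs of the gene. Eip75B has 26 blue marks, and CG12535, with no open TSS, has 19.

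Among genes with 5 or more regions, the densest were short. Ggt-1, a gamma-glutamyl transpeptidase, had 5 regions in 3.49 kb of eligible intron, or 14.3 per 10 kb, with no open TSS. JIL-1, the kinase that phosphorylates histone H3 in interphase, had 6, or 12.99 per 10 kb, 14-3-3epsilon had 5, or 12.9, and Kdm2, a histone demethylase, had 5, or 12.5. Dyro, cwo (a repressor in the circadian clock), Pits, eff (a ubiquitin-conjugating enzyme), Pdcd4 and CG3764 followed with 12.4 to 7.92 per 10 kb. All 7 regions of cwo, of Pits and of CG3764 and all 5 of 14-3-3epsilon were in the first intron. At the other end, the longest genes with eligible intron and no region were Pzl (709 kb), lovit (434 kb), DIP-lambda (379 kb), Ten-a (292 kb) and Ppr-Y (248 kb). Ten-a, a teneurin of neuronal connections, had an open TSS, and its repeat share was 24.3%. The other 4 had no open TSS and repeat shares of 28.9% to 45.7%. Ppr-Y is on Y, where only 10 open regions of any class were called.

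The 12 gene lists are described by how many of their genes with eligible intron held a region, beside the 16.0% of all genes and the number that their gene lengths alone would give. The number from length does not account for whether a TSS was open, as it was in 4209 of all 6806 genes with eligible intron. Of 15 ecdysone response genes, 14 held a region (93.3%, against 59.1% from length), and 14 had an open TSS. The 122 regions were 3.16 times the number from length (2.63 to 3.78). Without the 10 genes with most regions the value was 2.68 (2.12 to 3.35). Besides Eip75B and tai, these included Eip74EF, an ETS factor, with 15 regions, whereas Hr38 had none in 20.2 kb. Of 18 genes of receptor tyrosine kinase signalling and ETS factors, 9 held 58 regions, 2.85 times the number from length. InR, the insulin receptor, had 12 and aop, an ETS repressor, had 6, whereas rl, the ERK kinase, had none in 36.0 kb. Of 18 JAK/STAT and JNK genes, 9 held 29 regions, 3.42 times the number from length, with 11 in Ptp61F, a phosphatase, 5 in puc, the JNK phosphatase, and 4 in kay, the Fos protein. Of 26 chromatin and insulator genes, 10 held a region (38.5%, against 28.4% from length), and all 26 had an open TSS. The list held 47 regions, 4.22 times the number from length (3.10 to 5.62), and psq had 13, osa 8 and Mi-2 6. Psc, a Polycomb protein, had none in 8.28 kb.

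Hemocyte genes held 33 regions in 8 of 15 genes (53.3%, against 26.8% from length), 2.71 times the number of regions from length. Of these, 20 were in ush, 4 in zfh1 and 3 in vkg, a type IV collagen, and without the 10 genes with most regions the value was 1.49 (0.795 to 2.55). Ppn, an extracellular matrix protein, and drpr, an engulfment receptor, had none. The values were nearer to those from length for actin and adhesion genes (1.54), muscle genes (1.30), RNA-binding regulators (1.29), body patterning regulators (1.18) and Toll and Imd genes (0.988, with 6 regions). Neural lists were below it. Synapse and ion channel genes held 17 regions in 10 of 24 genes (41.7%, against 50.1% from length), 0.424 times the number of regions from length. An open TSS was found in 7 of the 24, compared with 4209 of all 6806 genes with eligible intron. Axon guidance and neural adhesion genes held 65 in 15 of 44 (34.1%, against 55.0% from length), 0.541 times, and 27 of the 44 had an open TSS. Of these regions 25 were in kirre, whereas Ten-a and dpr8 had none in 218 and 126 kb. Without the 10 genes with most regions, kirre among them, the value for this list was 0.402 (0.287 to 0.547).

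Matches to sequence motifs on either strand were sought in windows of 200 bp centred on each midpoint and in 195403 closed windows of 200 bp tiled over eligible intron outside every open region. Of 20 motifs, 7 were more common in intronic regions, with a ratio whose interval lay above 1. These intervals count close neighbours as separate regions, and whether they are separate sites was not tested. GAGAGAG was in 395 windows, 13.6% (12.4% to 14.9%) against 2.47% of closed intron, a ratio of 5.52 (5.02 to 6.04), and over arms the ratio was 5.11 to 6.36. The GATA motif, AGATAAG or TGATAAG, which Serpent binds in blood cells, was in 392 windows, 13.5% (12.3% to 14.8%) against 4.97%, a ratio of 2.72 (2.48 to 2.98). The AP-1 motif, TGACTCA or TGAGTCA, bound by Kay with Jra, was in 4.66% against 1.77%, a ratio of 2.63 (2.21 to 3.10). The CREB motif TGACGTCA was in 31 windows, 1.07% against 0.299%, a ratio of 3.58 (2.44 to 5.07), and over arms it was 0.714 to 5.02. The Mad motif GCCGNCGC had a ratio of 2.22, the Gcm motif ATGCGGG 1.51 and the E-box CAGCTG 1.50. Intronic regions had a GC content of 44.9% in these windows and closed intron 40.3%. With closed windows weighted to the same GC classes, GAGAGAG had a ratio of 4.57, GATA 3.21, AP-1 2.58, CREB 2.96, Mad 1.48 and CAGCTG 1.18, and the Gcm ratio of 1.17 (0.875 to 1.53) was no longer apart from 1. The Gcm interval also reached 1 with a TSS distance of 2 kb (0.833 to 1.75).

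The motif content also set these regions apart from promoters. The DRE motif TATCGATA, bound by Dref and BEAF-32, was in 0.311% of intronic regions, 0.369% of closed intron and 8.88% of regions at TSSs. The M1BP motif GGTCACAC was in 0.276% of intronic regions, 0.310% of closed intron and 9.13% of regions at TSSs. Both are elements of fly core promoters, and in intronic regions they were at the level of closed intron. Intergenic regions were also low, with DRE in 0.903% and M1BP in 0.401%. GATA and AP-1 went the other way, with 13.5% and 4.66% in intronic regions against 6.38% and 1.86% at TSSs. In the 997 intergenic regions GATA was in 10.7% and AP-1 in 2.71%. GAGAGAG was in 13.6% of intronic regions, 9.23% of regions at TSSs and 8.73% of intergenic regions. The E-box CAGCTG and the Mad motif were less common in intronic regions than at TSSs, with 10.8% against 16.5% and 3.28% against 4.32%.

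Homeodomain motifs were less common in intronic open regions than in closed intron. TAATTA, which homeodomains of the Antp class bind, was in 7.46% against 14.9%, a ratio of 0.501 (0.439 to 0.569). The Abd-B motif, TTTATGG or TTTATTA, had a ratio of 0.635 (0.570 to 0.705) and the Exd-Hox motif, TGATTAAT, TGATTGAT or TGATTTAT, 0.538 (0.432 to 0.660). These motifs are AT-rich, and with closed windows of like GC content the ratio was 0.675 for TAATTA and 0.828 for Abd-B. The Stat92E motif TTCNNNGAA had a ratio of 0.670 (0.557 to 0.798). The ETS motif, CCGGAAG or CCGGAAA, had a ratio of 0.750 (0.583 to 0.9496), and its interval reached 1 under 5 of the alternative settings, for example 0.594 to 1.04 with a TSS distance of 2 kb. CAGGTAG, the motif of Zelda, the pioneer factor of the early embryo, was in 6 windows against 0.868% of closed intron, a ratio of 0.239 (0.0876 to 0.519). The Runx motif, TGTGGTT or TGCGGTT, had a ratio of 0.932 (0.795 to 1.09), and the nuclear receptor core AGGTCA 0.914 (0.767 to 1.08). With closed windows of like GC content the Runx ratio was 0.850 (0.724 to 0.989). A match is a description of letters and not a bound site.

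**Figure D5:**
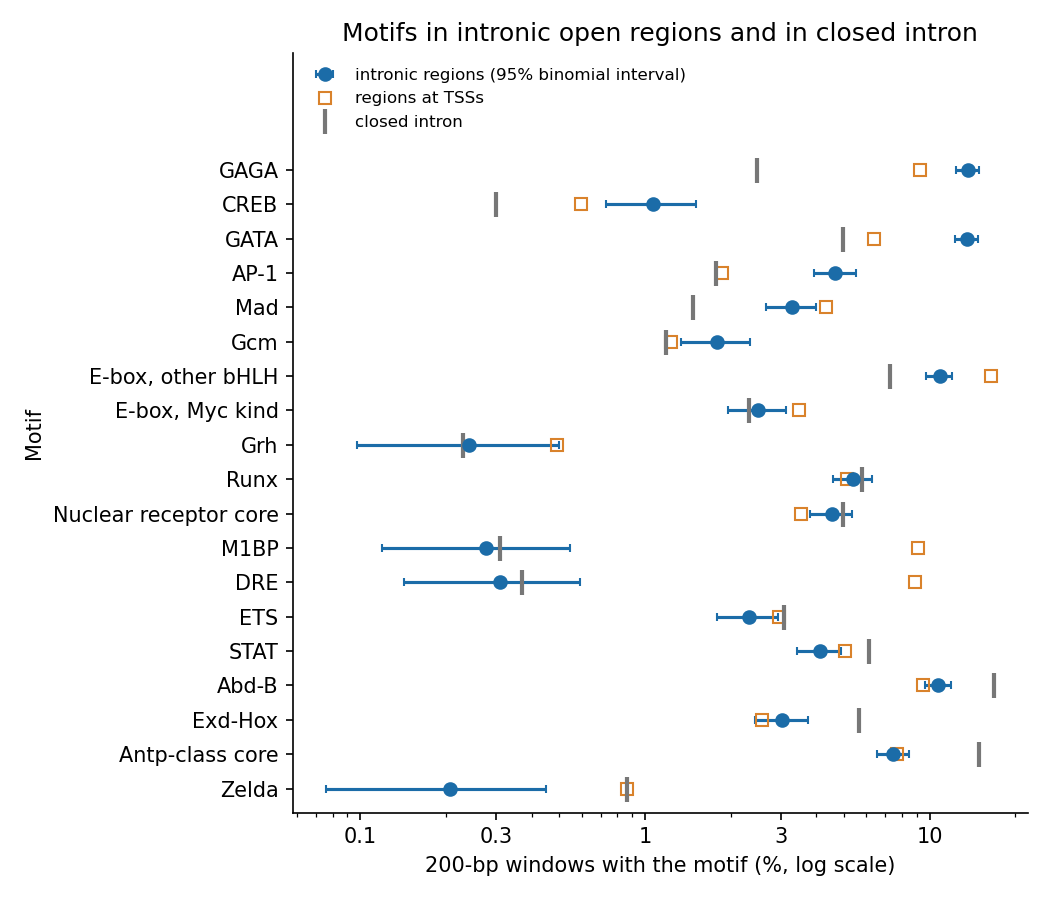
Share of windows with each motif. The x axis gives the percentage of 200-bp windows on a log scale, with intronic regions as blue points with 95% binomial intervals, regions at TSSs as open squares and closed intron as grey marks. Motifs run from the highest ratio of intronic regions over closed intron at the top (GAGA, 13.6% against 2.47%) to the lowest (Zelda), and Rel, with no match in intronic regions, is left out.

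GAGAGAG and the matches to GATA and AP-1 were more frequent near the centre of the regions than beside them. Within 100 bp of the midpoint GAGAGAG occurred 1.92 times per kb, compared with 0.459 per kb at 500 to 1000 bp on either side, a ratio of 4.19 (3.87 to 4.55). The ratio was 1.85 (1.66 to 2.06) for GATA and 1.92 (1.58 to 2.34) for AP-1, and 0.514 (0.448 to 0.588) for TAATTA. First and later introns had like shares, with GAGAGAG in 14.3% and 12.9% and GATA in 13.9% and 13.3% of their regions. Regions in genes with an open TSS and regions in no gene with one also had GATA in 13.6% and 13.2%, and GAGAGAG in 14.0% and 10.7%. Regions of 500 bp or more had GAGAGAG in 18.3% and regions under 200 bp in 12.3%.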

How the data were processed

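The deposited file gave chromosome, start and end of each open region in 3 basal Kc167 ATAC-seq libraries (other: positions, with no score or signal). The authors mapped the reads to dm6, scaffolds left out, with Bowtie 1.2.2, kept those with 1 alignment, shifted them by 4 bp (plus strand) or 5 bp (minus strand) for the transposase, called regions in each replicate with MACS2 2.1.1.20160309 at q 0.01, and kept the union open in at least 2 of 3. Sequence present in several copies therefore could not be called open, and the list gives no read numbers.

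Positions were compared with the Ensembl BDGP6 annotation, in which 5889 transposable elements also have exons and TSSs, and with the RefSeq Release 6 sequence, on 7 arms. Density is the number of midpoints per Mb of eligible intron. Introns were numbered in the transcript of longest span. A region in introns of several genes counted for each gene. The number expected from length is the eligible sequence of each gene times the density of its length class. Intervals are exact Poisson, Clopper-Pearson or conditional binomial (scipy 1.17.1, Python 3.11.15). Placement and counting were tested on simulated regions with known ratios. Named genes were the 10 with most regions, the 10 densest with 5 or more, hosts of the 10 widest regions, the 5 longest with none, and in each list the 3 with most regions and the 2 with most eligible intron and none, of which some are given. Genes outside this rule (sbb, DIP-alpha) were named after their values were seen. The rule for the regions, the lists, the motifs and the alternatives were chosen with earlier results of these data known.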

Additional observations from a re-analysis of the deposited data

How the results depend on the processing

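The list combines the replicates, so no replicate could be left out. No paired analysis was possible because no result comes from a test and the list has no column per library. Every density ratio stayed on the same side of 1 under each setting run. The ratio of first over later introns was 2.01 with a TSS distance of 500 bp and 2.19 for introns first or later in every transcript. The ratio of genes with an open over a closed TSS was 3.80 with all regions of 200 bp or more, 3.49 with the open TSS defined by such regions and 4.44 for genes of 20 to 100 kb. The ratio of genes over 100 kb over those under 20 kb was 0.212 without the 10 genes with most regions, 0.169 by length of eligible sequence and, chosen after seeing the data, 0.312 outside repeats and 0.347 for genes with an open TSS. The median width was 359 bp when regions under 200 bp were left out, which removes the narrow ones by construction. The number of regions was 2052 to 3827 over TSS distances of 2 kb and 500 bp, and 3026 with transposable elements left out of the annotation, also chosen after seeing the data. In 100-bp windows the ratio was 7.15 for GAGA, 3.04 for GATA, 3.27 for AP-1, 0.347 for TAATTA and 0.0822 for Zelda.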

Other observations

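The 7-letter words most common in intronic regions over closed intron, among 5468 words in 40 or more windows, were mostly GA-rich, led by CTCTCTC with a ratio of 5.52, then CGCTCTC with 5.19. CTCTCTC is GAGAGAG on the other strand, so its ratio repeats the one given for that motif. A second family held or extended the GATA motif, with CGATAAG in 7.01% of intronic regions against 1.89% of closed intron, GATAAGC in 8.11% against 2.20% and CTTATCA in 8.91% against 2.70%. CTTATCA is TGATAAG on the other strand, which was already part of the GATA motif. CGACGTC, which holds the central letters of the CREB motif, was in 3.21% against 0.817%. The lowest words were AT-rich, such as ATTAAAG at 0.361, but also included TGGCCAA at 0.386. CGATAAG was in 6.29% of regions at TSSs, where GATAAGC was in 4.09%. These words were ranked on the regions themselves, so their ratios are a description.

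Intronic regions were unevenly spread along the arms. In 134 bins of 1 Mb with at least 0.1 Mb of eligible intron, the median density was 69.5 per Mb (quartiles 41.6 and 94.0), and 10 bins had none. The bin with most regions was the fourth Mb of X, with 89 regions, or 164 per Mb (132 to 202). The stretch of X between 2 and 4 Mb held 20.2% of the intronic regions of X on 11.8% of its eligible intron. Regions there were in kirre (25), CG12535 (19), Tlk (14), Raf (11), Mnt (10) and N, the Notch receptor (9), among others. The densest bin was on 2R between 11 and 12 Mb, with 59 regions, or 169 per Mb (128 to 218).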
